A study of Mus musculus with 6 samples.

Results

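The Wnt genes described here are the Wnt ligands, their Frizzled and Lrp receptors, the R-spondins and their Lgr receptors, the secreted antagonists, β-catenin, the TCF/LEF factors and the feedback gene *Axin2*. They were chosen by gene symbol, as the *Wnt*, *Fzd*, *Sfrp*, *Dkk* and *Rspo* families together with *Frzb*, *Wif1*, *Axin2*, *Lrp5*, *Lrp6*, *Lef1*, *Tcf7*, *Tcf7l1*, *Tcf7l2*, *Ctnnb1*, *Lgr4*, *Lgr5*, *Lgr6*, *Notum* and *Porcn*. The choice gave 56 of the 37384 genes in the count table, by names alone, though the families were picked with earlier results of these data known.

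mRNA was sequenced from adipocytes that floated after collagenase digestion of inguinal subcutaneous white adipose tissue (scWAT) of male mice at postnatal day 7 (P7). The 3 L1L2-FF libraries came from Lats1f/fLats2f/f mice without Cre, and the 3 L1L2-AKO libraries from Lats1f/fLats2f/fAdipoqCre mice, so both groups carried the same floxed alleles and differed by Cre. The study's methods list the floxed lines on mixed backgrounds, C57BL/6-129-CD1 for Lats1f/f and C57BL/6-129 for Lats2f/f. Each library was a pool of 4 mice. *Adipoq* drives Cre in adipocytes from the stage at which they express adiponectin, and flotation does not remove cells that cling to fat cells. LATS1 and LATS2 are the kinases that restrain the co-activators YAP and TAZ in the Hippo pathway, and the comparison asks what adipocytes express when both are deleted.

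Wnt ligands are lipid-modified secreted proteins that bind Frizzled receptors. In the canonical branch a Frizzled joins with LRP5 or LRP6, the complex that degrades β-catenin is held in check, and β-catenin enters the nucleus to act with TCF/LEF factors. R-spondins and their LGR receptors keep Frizzleds at the cell surface, while secreted frizzled-related proteins, WIF1 and Dickkopf proteins bind ligands or co-receptors and block signaling. In adipose tissue, canonical Wnt signaling is known to restrain adipogenesis.

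The total count was between 30548473 and 32107917 per library, and 15674 genes passed the filter on low counts. Of these, 2580 (16.5%) were past an adjusted p of 0.05 (edgeR's quasi-likelihood test, Benjamini-Hochberg over the genes tested), 9.28% as rises and 7.18% as falls in L1L2-AKO. Below, such genes are called changed, and levels are CPM, the count scaled to library size with TMM factors, unless TPM, which also divides by exon length, is named. *Lats1* was at 76.1, 94.3 and 78.4 CPM in L1L2-FF and at 38.9, 41.2 and 40.5 CPM in L1L2-AKO, a fall by 1.04 on the log2 scale (SE 0.12, edgeR adjusted p = 0.00131). *Lats2* had higher counts over the whole gene in the libraries labelled L1L2-AKO, with 74.9, 85.7 and 68.5 CPM in L1L2-FF and 96.2, 126 and 135 CPM in L1L2-AKO. Its log2 fold change was 0.64 (SE 0.16, edgeR adjusted p = 0.0278), and the call was lost without L1L2-FF replicate 1 or 3 or without L1L2-AKO replicate 2 or 3, with log2 fold changes of 0.62, 0.57, 0.60 and 0.55. By quantitative PCR, the study reported lower *Lats1* and *Lats2* mRNA in adipocytes from P7 L1L2-AKO scWAT. One value per gene in the counts does not show which exons the reads came from. In addition, 41.19% of the 50-base stretches of *Lats2* also occur in *Gm49361*. That gene overlaps exons of *Lats2* on the same strand and is not listed under that symbol in the count table. Every direction below is therefore that of the labels. The adipocyte markers were abundant in every library, with a summed level of 15700 to 19200 CPM in L1L2-FF and 11600 to 14000 CPM in L1L2-AKO over 10 genes, 4 of which were lower in L1L2-AKO.

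Of the 56 Wnt genes, 37 passed the filter and were tested. Secreted antagonists gave the largest rises: *Sfrp1*, *Sfrp5* and *Wif1* were 49.2-, 48.8- and 32.0-fold higher in L1L2-AKO, while *Sfrp4* fell. The Frizzleds *Fzd1*, *Fzd2*, *Fzd4*, *Fzd5* and *Fzd7*, the ligands *Wnt5a* and *Wnt11*, the R-spondin *Rspo1* and its receptor *Lgr4* also rose, and the ligand *Wnt2* fell. In all, 12 genes rose (32.4% of those tested, beside 9.28% of all genes) and 2 fell (5.41%, beside 7.18%). The median log2 fold change over the 37 genes was 0.08, beside -0.02 over all genes tested. Levels did not overlap between the genotypes for 19 of the 37 genes (51.4%, beside 36.4% of all genes tested), 13 of which were higher in L1L2-AKO and 6 of which were lower. The fit without L1L2-FF replicate 1 called 7 rises and 1 fall, and called 777 rises over all genes in place of 1455. In these bulk libraries fewer cells of a type and less RNA per cell cannot be told apart.

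**Figure D1:**
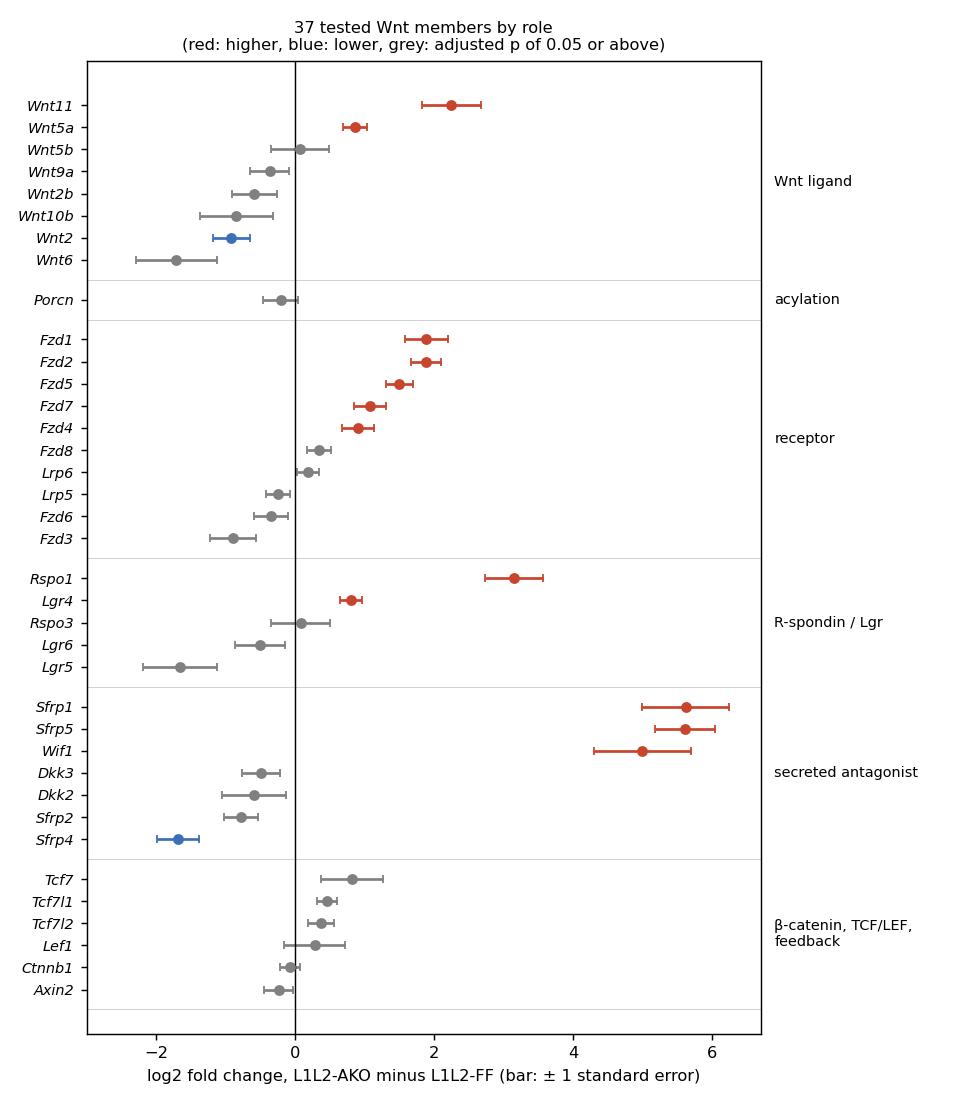
Log2 fold change between L1L2-AKO and L1L2-FF (horizontal axis) for each of the 37 tested Wnt genes, grouped by role, with bars of 1 standard error and red, blue or grey for rises, falls and genes not past an adjusted p of 0.05. *Sfrp1*, *Sfrp5* and *Wif1* lie at 5.00 or above, 5 Frizzleds lie between 0.90 and 1.89, and all genes of the β-catenin and TCF/LEF group are grey.

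Other cells in the floated fraction were followed by fixed marker lists, to be read beside the 16.5% of all genes tested that were called. All 10 macrophage markers were higher in L1L2-AKO (median log2 fold change 1.44), with a summed level of 252 to 503 CPM in L1L2-FF against 948 to 1070 CPM in L1L2-AKO, and *Mrc1* was the most abundant. Of 10 progenitor markers 2 were lower, with summed levels of 585 to 877 CPM in L1L2-FF and 435 to 565 CPM in L1L2-AKO, led by *Dcn*. Of 8 mural cell markers 1 was higher and 2 were lower (1060 to 1410 against 786 to 1060 CPM), and of 8 endothelial markers 1 was lower (1850 to 2500 against 1080 to 2350 CPM). Of 8 Schwann cell markers 4 were lower, at 477 to 1230 against 153 to 386 CPM. Of 8 epithelial markers 3 could be tested, with a median log2 fold change of -0.70, and 1 was higher, *Krt19*, named after its value was seen, while the sum was 3.03 to 7.38 against 2.56 to 3.58 CPM. EdgeR called 0 of 10 T and B cell markers (2 with an unadjusted p under 0.05, 1 called by DESeq2, 0 by limma-voom), at 9.64 to 28.9 against 17.2 to 34.4 CPM. It called 0 of the 7 skeletal muscle markers tested, of 8 listed (4 with an unadjusted p under 0.05, 4 called by DESeq2, 1 by limma-voom), at 44.6 to 46.5 against 23.8 to 28.7 CPM. Most of that muscle sum was *Des*, which is in the mural cell list too, at means of 30.6 CPM in L1L2-FF and 19.9 CPM in L1L2-AKO. No marker of any list was at 0 in every library. The part of these cells in the Wnt results was not tested.

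Secreted frizzled-related proteins carry a Frizzled-like domain that binds Wnts outside the cell. *Sfrp5*, an antagonist known as an adipokine (chromosome 19, mm10, 42197971 to 42202252, minus strand), had counts of 236, 407 and 134 in L1L2-FF and 9147, 13539 and 13983 in L1L2-AKO. These were 7.53, 12.6 and 4.32 CPM against 276, 429 and 488 CPM, with every L1L2-AKO library far above every L1L2-FF library. The log2 fold change was 5.61 (SE 0.43, edgeR adjusted p = 0.000382), a 48.8-fold difference. *Sfrp1*, a related antagonist known to affect adipogenesis (chromosome 8, 23411502 to 23449632, plus strand), had counts of 180, 294 and 111 against 3676, 9223 and 14418, or 5.75, 9.09 and 3.58 CPM against 111, 293 and 503 CPM. The L1L2-AKO libraries were spread more widely for this gene than for *Sfrp5*, with no overlap between the genotypes. Its log2 fold change was 5.62 (SE 0.62, edgeR adjusted p = 0.00122), and it ranged from 5.04 to 6.02 when each library was left out in turn.

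*Wif1* encodes a secreted inhibitor that binds Wnts through a domain of its own, unrelated to Frizzled (chromosome 10, 121033960 to 121100650, plus strand). It was nearly silent in L1L2-FF, with counts of 13, 6 and 0, and had counts of 149, 181 and 270 in L1L2-AKO. In CPM these were 0.415, 0.186 and 0 against 4.49, 5.74 and 9.43. The log2 fold change was 5.00 (SE 0.69, edgeR adjusted p = 0.0029), and it was 6.05 without L1L2-FF replicate 1 and 4.43 without L1L2-FF replicate 3. *Wif1* stayed past the threshold in each fit without a library.

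*Sfrp4* (chromosome 13, 19623104 to 19632994, plus strand), another member of the same protein family, moved the opposite way. It was at 9.51, 15.4 and 7.83 CPM in L1L2-FF and at 2.50, 4.16 and 3.49 CPM in L1L2-AKO, without overlap, and fell by 1.69 on the log2 scale (SE 0.31, edgeR adjusted p = 0.00866). *Sfrp2* and *Sfrp5* had the highest TPM of the family in L1L2-FF, at 11.6 and 12.7 TPM, within their spread. *Sfrp2* was at 9.19, 10.6 and 5.74 CPM against 4.46, 5.04 and 5.34 CPM. Its libraries did not overlap either, but its log2 fold change of -0.78 (95% interval -1.35 to -0.22) did not pass the threshold (edgeR adjusted p = 0.0665). Progenitors are a known source of *Sfrp2* and *Sfrp4*, and their summed markers were also lower in L1L2-AKO (435 to 565 against 585 to 877 CPM), a part that was not tested. The call of *Sfrp2* was gained with DESeq2's Wald test (adjusted p = 0.0271) and in edgeR without L1L2-FF replicate 3 (-1.01, adjusted p = 0.0153). The Dickkopf genes, of which *Dkk2* encodes a ligand of the LRP co-receptors and *Dkk3* a divergent relative, were low: *Dkk2* averaged 2.49 ± 1.61 CPM in L1L2-FF and 1.65 ± 0.242 CPM in L1L2-AKO (SD, n = 3), and *Dkk3* 4.24 ± 0.854 and 3.03 ± 0.824 CPM. Neither passed the test, with 95% intervals of the log2 fold change from -1.65 to 0.47 for *Dkk2* and from -1.11 to 0.14 for *Dkk3*.

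Per exon length, the summed level of the 10 antagonists was 38.8, 62.5 and 25.5 TPM in L1L2-FF and 583, 931 and 1080 TPM in L1L2-AKO, a ratio of means of 20.4. The composition of this sum differed between the genotypes. In L1L2-FF, *Sfrp5* held 28.8% ± 3.96 of the TPM, *Sfrp2* 28.2% ± 3.52, *Sfrp4* 18.4% ± 1.88 and *Sfrp1* 9.59% ± 0.673 (SD, n = 3). In L1L2-AKO, *Sfrp5* held 75% ± 7.41 and *Sfrp1* 22.3% ± 7.94, while *Sfrp2* held 0.869% ± 0.273 and *Sfrp4* 0.297% ± 0.067. On the CPM scale, which favors longer transcripts, *Sfrp1* held 38.9% ± 11.1 in L1L2-AKO, and *Sfrp4* led in L1L2-FF at 26.9% ± 2.18 with *Sfrp5* at 19.2% ± 2.85. With *Sfrp5* and *Sfrp1* left out, a choice made after their values were seen, the sum was 23.8, 35.7 and 16.9 TPM against 19.3, 22.7 and 24.1 TPM, with overlap between the genotypes and a ratio of 0.864. Within that remainder *Wif1* went from 0.90% ± 1.04 to 36.5% ± 7.76 of the TPM and *Sfrp4* from 29.9% ± 2.48 to 11.2% ± 2.07, as the individual tests of the genes above describe.

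**Figure D2:**
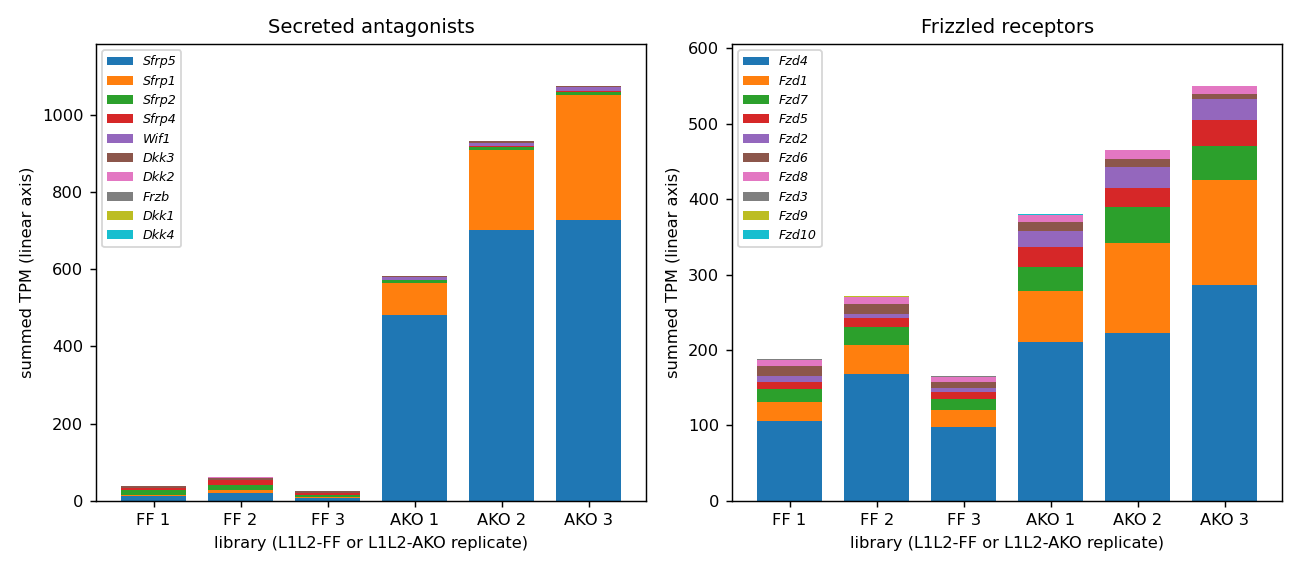
Stacked bars of TPM (linear axis) in each of the 6 libraries, for the 10 secreted antagonists on the left and the 10 Frizzleds on the right, with a color for each gene. The antagonist bars reach 62.5 TPM at most in L1L2-FF and 583 TPM at least in L1L2-AKO, nearly all of it *Sfrp5* and *Sfrp1*, and the Frizzled bars lie at 166 to 271 TPM in L1L2-FF and 379 to 551 TPM in L1L2-AKO, with *Fzd4* the largest segment.

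Frizzleds are the cell-surface receptors of Wnts, and 8 of 10 passed the filter. Of these 8, 5 rose in L1L2-AKO (62.5%, beside 9.28% of all genes). The summed level of the family was 188, 271 and 166 TPM in L1L2-FF and 379, 465 and 551 TPM in L1L2-AKO, a ratio of 2.24. *Fzd1* (chromosome 5, 4753839 to 4758035, minus strand) was at 37.5, 51.9 and 33.2 CPM in L1L2-FF and 86.2, 162 and 207 CPM in L1L2-AKO, with a log2 fold change of 1.89 (SE 0.32, edgeR adjusted p = 0.00616). *Fzd2* (chromosome 11, 102604396 to 102608058, plus strand) was at 10.3, 7.02 and 7.90 CPM against 23.4, 33.3 and 36.1 CPM, a log2 fold change of 1.88 (SE 0.21, edgeR adjusted p = 0.00135). Both genes were higher in every L1L2-AKO library than in any L1L2-FF library.

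*Fzd5* (chromosome 1, 64730558 to 64737751, minus strand) was at 23.9, 25.6 and 20.2 CPM against 55.5, 55.9 and 85.5 CPM, a log2 fold change of 1.5 (SE 0.19, edgeR adjusted p = 0.0022). *Fzd7* (chromosome 1, 59482424 to 59486955, plus strand) was at 26.5, 35.6 and 25.1 CPM against 42.3, 69.3 and 73.1 CPM, a log2 fold change of 1.08 (SE 0.23, edgeR adjusted p = 0.0159). *Fzd4* (chromosome 7, 89404355 to 89413134, plus strand), which is also the receptor of the vascular ligand Norrin, had the highest level of the receptors at 124 TPM in L1L2-FF and 239 TPM in L1L2-AKO. In CPM it was at 249, 365 and 237 against 429, 481 and 680, a log2 fold change of 0.90 (SE 0.23, edgeR adjusted p = 0.0354). Libraries of the genotypes did not overlap for any of these genes, but the calls of *Fzd7* and *Fzd4* were lost in several fits without a library. *Fzd7* was not called without L1L2-FF replicate 1 (1.02), L1L2-AKO replicate 2 (0.99) or L1L2-AKO replicate 3 (0.95), and *Fzd4* not without L1L2-FF replicate 1 (0.81), L1L2-FF replicate 3 (0.78), L1L2-AKO replicate 2 (0.97) or L1L2-AKO replicate 3 (0.69). Endothelial cells are a known site of *Fzd4*, and summed endothelial markers were at 1850 to 2500 CPM in L1L2-FF and 1080 to 2350 CPM in L1L2-AKO. Their part in the *Fzd4* values was not tested.

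The remaining Frizzleds were not called. *Fzd3* was at 5.13 ± 1.5 CPM in L1L2-FF and 2.74 ± 0.889 CPM in L1L2-AKO (SD, n = 3), with a log2 fold change of -0.90 (95% interval -1.66 to -0.15, edgeR adjusted p = 0.102), and it was called without L1L2-FF replicate 2 (-1.13, edgeR adjusted p = 0.0385). The intervals were -0.91 to 0.21 for *Fzd6* and -0.06 to 0.73 for *Fzd8*. *Lrp5* and *Lrp6* encode the co-receptors that commit a Frizzled to the β-catenin branch. *Lrp5* was at 130, 137 and 103 CPM in L1L2-FF and 127, 90.1 and 93.6 CPM in L1L2-AKO, with a log2 fold change of -0.25 (95% interval -0.65 to 0.14, edgeR adjusted p = 0.376). *Lrp6* was at 137, 183 and 131 CPM against 163, 158 and 188 CPM, with a log2 fold change of 0.18 (95% interval -0.18 to 0.54, edgeR adjusted p = 0.506). The genotypes overlapped for both co-receptors.

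Of 19 Wnt ligand genes 8 passed the filter, beside 15674 of the 37384 genes in the count table. The summed level of the 19 was low, at 23.4, 28.4 and 22.6 TPM in L1L2-FF and 38.4, 36.9 and 46.6 TPM in L1L2-AKO. *Wnt5a*, the prototype of ligands that signal without β-catenin (chromosome 14, 28504750 to 28527448, plus strand), held 52.1% ± 3.39 of that sum in L1L2-FF and 60.1% ± 5.13 in L1L2-AKO (SD, n = 3). It was at 32.2, 36.2 and 35.7 CPM against 58.7, 50.8 and 79.0 CPM, and rose by a log2 fold change of 0.86 (SE 0.17, edgeR adjusted p = 0.0122). *Wnt11*, which also acts mainly outside the β-catenin branch (chromosome 7, 98835112 to 98855195, plus strand), was at 2.33, 4.55 and 1.39 CPM against 9.23, 12.7 and 17.4 CPM, a log2 fold change of 2.25 (SE 0.42, edgeR adjusted p = 0.0104). Its share of the ligand sum was 7.62% ± 3.96 in L1L2-FF and 23.5% ± 3.74 in L1L2-AKO. Neither ligand overlapped between the genotypes, and both lost the call without L1L2-FF replicate 1, at 0.80 (edgeR adjusted p = 0.0582) for *Wnt5a* and 2.13 (edgeR adjusted p = 0.0528) for *Wnt11*. Exons of *Wnt5a* overlap *Gm2670* and those of *Wnt11* overlap *Gm8398* on the other strand, and the strand setting of the counts is not given in the sources used here. Among the tested Wnt genes, *Ctnnb1*, *Axin2*, *Sfrp2*, *Tcf7l1* and *Fzd6* also overlap exons of a counted gene on the other strand, with the same limit.

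*Wnt2* (chromosome 6, 17988940 to 18030585, minus strand), a ligand of the β-catenin branch, fell from 2.43, 1.92 and 2.35 CPM in L1L2-FF to 1.15, 1.3 and 1.08 CPM in L1L2-AKO, without overlap. It fell by 0.92 on the log2 scale (SE 0.26, edgeR adjusted p = 0.0481), just inside the threshold. Of the 6 fits that left out a library, 5 did not call it, with adjusted p from 0.0951 to 0.156 in edgeR, namely without L1L2-FF replicate 1 (-0.86) or 3 (-0.88) or without L1L2-AKO replicate 1 (-0.90), 2 (-1.0) or 3 (-0.86). It was also lost with library size alone, limma-voom or no filter on low counts, with adjusted p from 0.0515 to 0.0678. *Wnt6*, a ligand known to hold back adipogenesis, was at 0.734, 1.48 and 0.999 CPM against 0.0905, 0.539 and 0.349 CPM. It did not overlap, and its log2 fold change of -1.71 (95% interval -3.05 to -0.38, edgeR adjusted p = 0.0829) was past the threshold in DESeq2's Wald test (adjusted p = 0.0493). *Wnt9a* was at 2.36, 2.16 and 2.03 CPM against 1.21, 1.84 and 2.02 CPM, which barely separated the genotypes (log2 fold change -0.37, edgeR adjusted p = 0.429). *Wnt10b*, the ligand best known for restraining adipogenesis, was at 0.610 ± 0.222 CPM in L1L2-FF and 0.334 ± 0.189 CPM in L1L2-AKO (SD, n = 3), with a 95% interval of the log2 fold change from -2.06 to 0.36. Those intervals were -1.33 to 0.15 for *Wnt2b* and -0.89 to 1.04 for *Wnt5b*. *Porcn*, the acyltransferase that attaches the lipid to Wnts, was at 6.67 ± 1.72 and 5.78 ± 1.23 CPM, with an interval from -0.78 to 0.37.

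**Figure D3:**
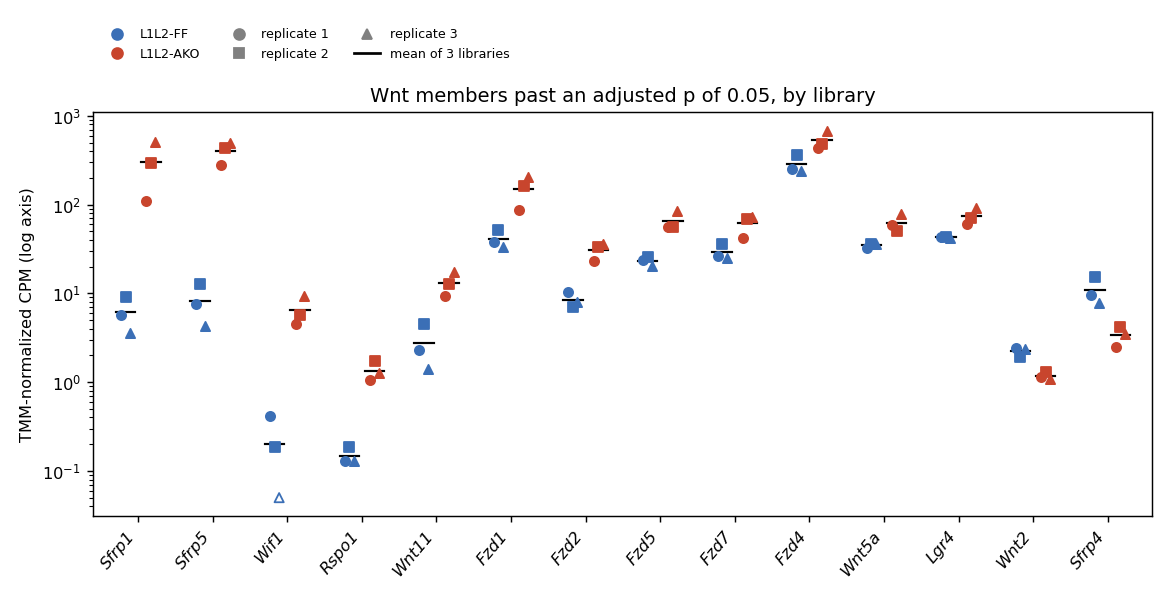
TMM-normalized CPM (log axis) in each library for the 14 Wnt genes past an adjusted p of 0.05, blue for L1L2-FF and red for L1L2-AKO, with a symbol for each replicate number and a line at each mean. The genotypes are separated for every gene shown, and the open symbol at the bottom stands for *Wif1* in L1L2-FF replicate 3, which had 0 counts and has no place on a log axis.

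*Rspo1* encodes a secreted protein that strengthens Wnt signaling through LGR receptors (chromosome 4, 124986430 to 125009099, plus strand). Its counts were 4, 6 and 4 in L1L2-FF and 35, 54 and 36 in L1L2-AKO, or 0.128, 0.186 and 0.129 CPM against 1.06, 1.71 and 1.26 CPM. The log2 fold change was 3.15 (SE 0.41, edgeR adjusted p = 0.0023), at a level of at most 1.71 CPM in a library. *Rspo3*, the other R-spondin that could be tested, was at 0.434 ± 0.128 and 0.455 ± 0.123 CPM (SD, n = 3), with a 95% interval of the log2 fold change from -0.90 to 1.05. *Lgr4* (chromosome 2, 109917647 to 110014257, plus strand), a receptor of R-spondins found in many tissues, held 90.7% ± 3.21 of the Lgr TPM in L1L2-FF and 96.2% ± 1.59 in L1L2-AKO. It was at 43.2, 42.8 and 42.0 CPM against 59.7, 70.2 and 92.3 CPM, and its log2 fold change was 0.80 (SE 0.16, edgeR adjusted p = 0.0137). The L1L2-FF libraries were nearly equal for this gene, and the call was lost without L1L2-FF replicate 1 (0.80, edgeR adjusted p = 0.0548). *Lgr5*, a stem cell marker in epithelia, was low at 0.543, 1.98 and 1.06 CPM against 0.302, 0.508 and 0.314 CPM. It did not overlap, but its log2 fold change of -1.66 (95% interval -2.90 to -0.43, edgeR adjusted p = 0.0708) passed the threshold in DESeq2's Wald test alone among the tools run (adjusted p = 0.0396). *Lgr6* had an interval from -1.34 to 0.33.

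Most of the 12 genes that rose had a similar order of libraries. That order was not counted over all genes that rose, so it is not shown to be particular to the Wnt genes. L1L2-AKO replicate 1 was the lowest L1L2-AKO library for 11 of the 12, and L1L2-AKO replicate 3 was the highest for 11. Among the L1L2-FF libraries, replicate 2 was the highest for 9 genes and replicate 3 the lowest for 9. In L1L2-AKO replicates 1, 2 and 3, summed macrophage markers were at 949, 1070 and 948 CPM. Adipocyte markers were at 13000, 11600 and 14000 CPM, and endothelial markers at 2350, 1870 and 1080 CPM. Progenitor markers were at 565, 544 and 435 CPM, and mural cell markers at 1060, 1010 and 786 CPM. Schwann cell markers were at 153, 386 and 252 CPM, and T and B cell markers at 17.2, 34.4 and 33.1 CPM. For L1L2-FF replicates 1, 2 and 3 the macrophage sums were 338, 503 and 252 CPM. The adipocyte sums there were 19200, 15700 and 18400 CPM, and the endothelial sums 2500, 2300 and 1850 CPM. Progenitor sums were 810, 877 and 585 CPM, and mural cell sums 1410, 1360 and 1060 CPM. Schwann cell sums were 477, 1230 and 774 CPM, and T and B cell sums 13.2, 28.9 and 9.64 CPM. The part of these cells in the order was not tested.

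Downstream of the receptors, β-catenin and the TCF/LEF factors carry the signal to DNA, and *Axin2* is a target that feeds back on the pathway. In edgeR 0 of these 6 genes were called, beside 16.5% of all genes tested. Of the 6, 1 had an unadjusted p under 0.05, DESeq2's Wald test called 1 and limma-voom called 0. *Ctnnb1*, which encodes β-catenin and had the highest level of the group at 302 TPM over all libraries, was at 566, 532 and 517 CPM in L1L2-FF and 572, 507 and 445 CPM in L1L2-AKO. Its log2 fold change was -0.08 (95% interval -0.41 to 0.24, edgeR adjusted p = 0.745). *Axin2* was at 23.3, 29.1 and 33.8 CPM against 30.3, 18.5 and 24.2 CPM, with overlapping libraries and a log2 fold change of -0.24 (95% interval -0.72 to 0.24, edgeR adjusted p = 0.488).

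*Tcf7l1*, mainly a repressor among these factors, held 66.2% ± 2.97 of the TCF/LEF TPM in L1L2-FF and 65.1% ± 3.96 in L1L2-AKO (SD, n = 3). It was at 48.8, 53.4 and 39.8 CPM against 56.3, 68.1 and 70.4 CPM, without overlap, and its log2 fold change of 0.46 (95% interval 0.12 to 0.79) had an edgeR adjusted p of 0.0691. DESeq2's Wald test called it (adjusted p = 0.0422), as did edgeR without L1L2-FF replicate 2 (0.55, adjusted p = 0.0427). *Tcf7l2* was at 40.2, 36.7 and 29.3 CPM against 35.8, 46.6 and 55.1 CPM (log2 fold change 0.37, 95% interval -0.05 to 0.80, edgeR adjusted p = 0.216). *Tcf7*, also a marker of T cells, was at 4.56, 8.75 and 2.58 CPM against 5.64, 10.5 and 12.0 CPM (log2 fold change 0.82, 95% interval -0.20 to 1.85, edgeR adjusted p = 0.259), and it was called without L1L2-FF replicate 2 (1.39, edgeR adjusted p = 0.0438). *Lef1* was at 1.85, 2.35 and 1.26 CPM against 0.995, 2.47 and 3.18 CPM (log2 fold change 0.28, 95% interval -0.74 to 1.3, edgeR adjusted p = 0.728). Summed T and B cell markers were at 13.2, 28.9 and 9.64 CPM in L1L2-FF and 17.2, 34.4 and 33.1 CPM in L1L2-AKO, an order of libraries close to that of *Tcf7*, and their part in it was not tested.

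The 19 Wnt genes left out by the filter had at most 20 counts in a library. They were the ligands *Wnt1*, *Wnt3*, *Wnt3a*, *Wnt4*, *Wnt7a*, *Wnt7b*, *Wnt8a*, *Wnt8b*, *Wnt9b*, *Wnt10a* and *Wnt16*, the receptors *Fzd9* and *Fzd10*, the R-spondins *Rspo2* and *Rspo4*, the antagonists *Dkk1*, *Dkk4* and *Frzb*, and *Notum*, which removes the lipid from Wnts. *Wnt3*, *Wnt3a* and *Wnt7a* had 0 counts in all 6 libraries, which allows a level of up to 0.105 CPM in a library as far as counting error goes. *Wnt4* had counts of 12, 20 and 0 in L1L2-FF and 0, 0 and 4 in L1L2-AKO, and *Frzb* had 5, 15 and 6 against 2, 3 and 2. *Dkk1*, itself a target of β-catenin, had 0 counts in each L1L2-FF library and 4, 0 and 3 in L1L2-AKO. At this depth no difference could be read from these genes.

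The promoters of the genes that moved are shown for the 2 largest rises with an entry in the promoter table, *Sfrp5* and *Wif1*, and for the 3 genes that rose and hold one of the searched motifs, *Fzd1*, *Wnt11* and *Lgr4*. Each runs from 250 bases before the start annotated by RefSeq to 50 bases after it, 5′ to 3′ on the gene's strand in GRCm38.p6, whose chromosomes are those of mm10. Capitals mark the core of the TCF/LEF motif, CTTTGA, or of the TEAD motif, GGAATG, found on either strand, so that a match on the other strand reads TCAAAG or CATTCC. TEAD factors are the DNA-binding partners of YAP and TAZ.
Sfrp5 (chr19:42202203-42202502, minus strand): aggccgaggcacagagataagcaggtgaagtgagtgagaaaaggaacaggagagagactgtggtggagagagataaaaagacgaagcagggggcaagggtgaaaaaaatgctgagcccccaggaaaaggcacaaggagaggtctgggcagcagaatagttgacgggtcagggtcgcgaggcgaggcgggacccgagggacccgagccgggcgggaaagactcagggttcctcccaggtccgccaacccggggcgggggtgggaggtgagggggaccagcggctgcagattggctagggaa
Wif1 (chr10:121033754-121034053, plus strand): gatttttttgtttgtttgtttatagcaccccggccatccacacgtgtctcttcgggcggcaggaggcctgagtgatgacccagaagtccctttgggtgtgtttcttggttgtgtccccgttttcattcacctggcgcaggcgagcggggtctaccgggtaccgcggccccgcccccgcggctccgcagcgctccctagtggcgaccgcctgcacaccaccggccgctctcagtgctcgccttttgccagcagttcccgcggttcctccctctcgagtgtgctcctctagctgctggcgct
Fzd1 (chr5:4758167-4758466, minus strand): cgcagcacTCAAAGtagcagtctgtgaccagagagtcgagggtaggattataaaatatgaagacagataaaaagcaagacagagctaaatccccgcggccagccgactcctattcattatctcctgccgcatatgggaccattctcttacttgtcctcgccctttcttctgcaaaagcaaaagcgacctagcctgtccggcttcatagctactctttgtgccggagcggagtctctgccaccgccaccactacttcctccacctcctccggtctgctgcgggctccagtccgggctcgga
Wnt11 (chr7:98834862-98835161, plus strand): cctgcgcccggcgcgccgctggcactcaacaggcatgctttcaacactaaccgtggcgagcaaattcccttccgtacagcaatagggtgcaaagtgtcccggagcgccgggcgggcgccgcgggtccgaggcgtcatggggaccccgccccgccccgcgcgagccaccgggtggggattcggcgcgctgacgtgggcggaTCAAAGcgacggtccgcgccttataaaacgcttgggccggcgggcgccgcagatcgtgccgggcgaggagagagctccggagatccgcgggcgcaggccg
Lgr4 (chr2:109917397-109917696, plus strand): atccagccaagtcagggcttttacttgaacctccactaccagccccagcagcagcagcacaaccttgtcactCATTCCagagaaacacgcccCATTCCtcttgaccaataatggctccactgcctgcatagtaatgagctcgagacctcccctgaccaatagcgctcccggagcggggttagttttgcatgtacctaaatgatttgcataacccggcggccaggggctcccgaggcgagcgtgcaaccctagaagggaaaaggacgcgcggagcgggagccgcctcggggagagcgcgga

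In the *Fzd1* window the TCF/LEF core lies 242 bases before the start, in the first *Wnt11* window 50 bases before it, and the *Lgr4* window holds the TEAD core at 178 and 158 bases before it, all on the strand opposite to the gene. The windows of *Sfrp5* and *Wif1*, the genes with the largest differences shown, have no capitals, so neither core was found in these windows. Entries were found for 37 of the 56 Wnt genes, in 46 windows. CTTTGA was in 6 of the 46 (13%), beside 16.0% of 32851 promoters, and GGAATG in 2 (4.35%), beside 14.7%. Of the 10 windows of 9 genes that rose, 2 held CTTTGA and 1 held GGAATG. A match of this length is a description of the window and shows no binding.

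Other genes of the pathway were followed in a list of 63 genes, of which 57 were tested and 14 were called (24.6%, beside 16.5% of all genes), 7 higher and 7 lower, with a median log2 fold change of -0.06. *Nkd1*, a Dishevelled-binding inhibitor that β-catenin is known to induce, was at 18.5, 18.5 and 28.8 CPM in L1L2-FF and 127, 98.6 and 158 CPM in L1L2-AKO. It rose by a log2 fold change of 2.54 (SE 0.24, edgeR adjusted p = 0.000661), without overlap. *Ryk*, a co-receptor of *Wnt5a*-like ligands, was at 88.3, 88.2 and 102 CPM against 132, 165 and 189 CPM, a log2 fold change of 0.80 (SE 0.15, edgeR adjusted p = 0.0108). Of the Groucho co-repressors that sit on TCF factors, *Tle1* rose by a log2 fold change of 0.83 (SE 0.14, edgeR adjusted p = 0.00669) and *Tle2* by 1.12 (SE 0.31, edgeR adjusted p = 0.0416). *Ryk* was not called without L1L2-FF replicate 1 (0.76), and *Tle2* not without L1L2-FF replicate 1 (1.13) or 3 (0.96) or L1L2-AKO replicate 2 (0.98) or 3 (0.97). Limma-voom did not call *Tle2* either (adjusted p = 0.0705). The other 3 rises lay between 0.56 and 0.73.

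The largest fall in that list was *Celsr2*, a cadherin of the planar polarity branch, at 53.2, 49.9 and 23.5 CPM in L1L2-FF and 5.07, 5.61 and 4.78 CPM in L1L2-AKO. It fell by 3.03 on the log2 scale (SE 0.31, edgeR adjusted p = 0.000856). *Sostdc1*, an antagonist of Wnt and BMP signaling, went from 3.42, 10.3 and 5.87 CPM to 0.694, 1.71 and 1.43 CPM and fell by 2.35 (SE 0.47, edgeR adjusted p = 0.0136), although the call was lost without L1L2-AKO replicate 3 (-2.43, edgeR adjusted p = 0.0506). Summed Schwann cell markers, at 477, 1230 and 774 CPM against 153, 386 and 252 CPM, had the same order of libraries as *Sostdc1*, and their part in its fall was not tested. *Trabd2b*, a protease that inactivates Wnts, was at 50.2, 35.2 and 100 CPM against 22.2, 17.1 and 18.7 CPM and fell by 1.68 (SE 0.35, edgeR adjusted p = 0.0155). *Dact2*, which binds Dishevelled, was at 1.12, 1.70 and 0.709 CPM against 0.332, 0.539 and 0.244 CPM and fell by 1.65 (SE 0.47, edgeR adjusted p = 0.0494). *Trabd2b* was not called without L1L2-AKO replicate 2 (-1.59) or 3 (-1.65), and *Dact2* was called in 1 of the 6 fits without a library, the one without L1L2-FF replicate 3, with log2 fold changes from -2.01 to -1.28 over the 6 fits. It was also not called with library size alone (edgeR adjusted p = 0.0584) or by limma-voom (adjusted p = 0.0641). Without L1L2-FF replicate 1 the list had 4 rises and 3 falls, and without L1L2-AKO replicate 2 or 3 it had 5 rises and 2 falls. Of the 11 genes of the complex that degrades β-catenin, edgeR called 0, beside 16.5% of all genes tested. Of the 11, 1 had an unadjusted p under 0.05, and DESeq2's Wald test and limma-voom called 0.

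A list of 18 general feedback and target genes of β-catenin, of which 6 are among the 56 Wnt genes and 4 are in the pathway list, had 13 tested genes. Of these, 2 rose (15.4%, beside 9.28% of all genes) and 1 fell (7.69%, beside 7.18%), with a median log2 fold change of 0.27. Beside *Nkd1*, described above, *Cd44*, a hyaluronan receptor also abundant on leukocytes, was at 44.7, 41.3 and 39.1 CPM in L1L2-FF and 64.4, 83.3 and 86.8 CPM in L1L2-AKO. It rose by a log2 fold change of 0.91 (SE 0.14, edgeR adjusted p = 0.00433), and the part in it of the macrophage markers, which were also higher, was not tested. *Apcdd1*, a membrane inhibitor of Wnt signaling, was at 280, 232 and 228 CPM against 93.3, 120 and 187 CPM and fell by 0.89 (SE 0.24, edgeR adjusted p = 0.0427). *Apcdd1* was not called without L1L2-FF replicate 1 (-0.80), 2 (-0.93) or 3 (-0.95) or without L1L2-AKO replicate 1 (-0.68) or 2 (-0.81), and the list then had 0 falls. Levels did not overlap between the genotypes for 7 of the 13 targets (53.8%, beside 36.4% of all genes tested). Of these 7, 4 were higher and 3 lower in L1L2-AKO, and 4 were not called. The tested targets did not share a direction, with *Axin2*, *Lef1* and *Tcf7* not called and *Nkd1* 5.82-fold higher.

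**Figure D4:**
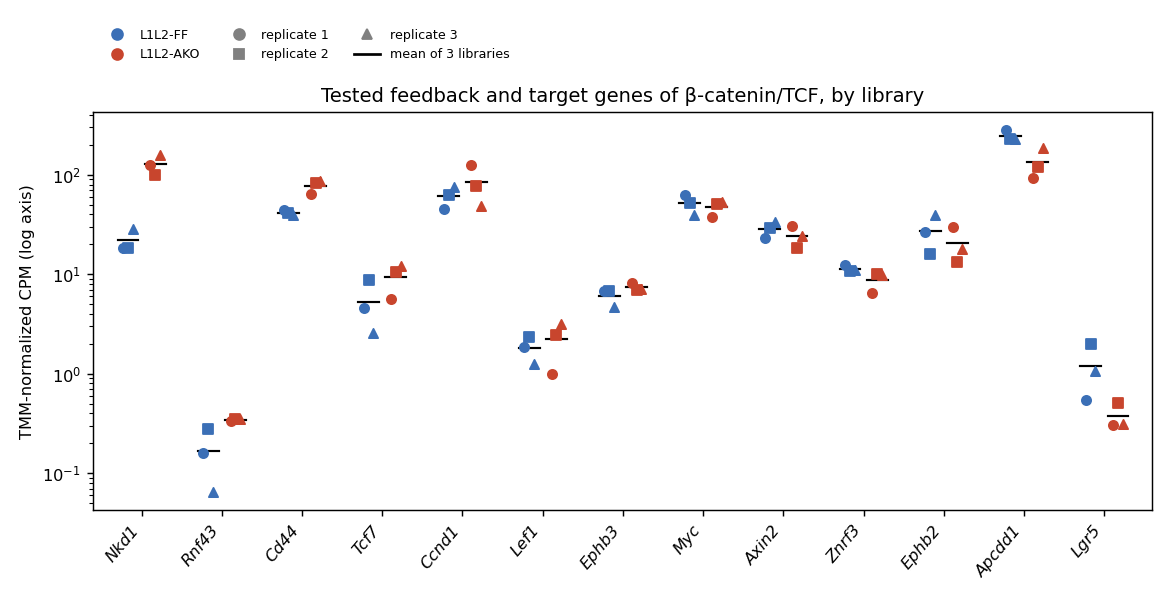
TMM-normalized CPM (log axis) in each library for the 13 tested feedback and target genes of β-catenin, blue for L1L2-FF and red for L1L2-AKO, with a symbol for each replicate number and a line at each mean. *Nkd1* and *Cd44* are higher and *Apcdd1* is lower in all L1L2-AKO libraries. The genotypes are also separated for *Rnf43* and *Ephb3*, higher in L1L2-AKO, and for *Znrf3* and *Lgr5*, lower there, none of them called. They overlap for *Axin2*, *Lef1*, *Tcf7*, *Ccnd1*, *Myc* and *Ephb2*.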

How the data were processed

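The authors isolated adipocytes from scWAT by collagenase digestion and flotation, captured mRNA with oligo(dT), sequenced it on a BGISEQ-500 and aligned the reads to mm10. The submitters' processing notes name HISAT2 2.1.0 and StringTie 1.3.5. The deposited values are raw counts, whole numbers of reads per gene symbol without normalization. The annotation, the counting program and its strand setting are not given in the sources used here, so reads of overlapping genes cannot be told apart. Libraries were assigned to L1L2-FF or L1L2-AKO by the submitters' titles. The counts of a gene in PCR-amplified libraries are not independent molecules, so limits from 0 counts cover counting error alone.

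L1L2-AKO was compared with L1L2-FF in R 4.3.3 on the counts as deposited, with edgeR 4.0.16: filterByExpr (minimum count 10, minimum total count 15), TMM scaling, and the two-sided quasi-likelihood test over 15674 genes with Benjamini-Hochberg adjustment and a threshold of 0.05. Genes left out by the filter, 21710 in number, were not tested. Standard errors were taken from the fold change and its F statistic, and intervals are 95% intervals. DESeq2 1.42.0, limma-voom (limma 3.58.1), DESeq2 size factors, upper-quartile factors, library size alone, a filter of at least 10 counts in every library, no filter at all, replicate number as a block and each library left out in turn were the alternatives. The sum of antagonists without *Sfrp1* and *Sfrp5* was added after seeing the data. The scripts were tested on simulated data. Python 3.11.15 with pandas 2.3.3 and matplotlib 3.10.9 served for tables and plots.

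Symbols were matched to GENCODE M21 for position, exon length and TPM, 36961 by symbol and 385 through a synonym, with 38 not found. The Wnt genes, the pathway, target and marker lists and the rule for named genes were chosen with earlier results of these data known. That rule took every Wnt gene past the threshold, the gene with the highest TPM in each role, *Ctnnb1*, *Lrp5*, *Lrp6*, *Axin2*, *Lef1* and the *Tcf7* family, genes without overlap, genes under the filter, and up to 4 rises and 4 falls of the pathway and target lists. *Fzd3* and the remaining Wnt genes were given as values to account for each one. The libraries are pools of mice. The p-values weigh the difference between genotypes against the spread between the 3 pools of a genotype, estimated with information shared across genes.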

Additional observations from a re-analysis of the deposited data

How the results depend on the processing

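Of the 14 Wnt genes called, 8 kept the call under every alternative and in each fit without a library, and 13 kept it under the alternatives that used all libraries, the exception being *Wnt2*, while *Rspo1* and *Wif1* were not tested with at least 10 counts in every library. No called gene changed direction. Rises among the Wnt genes numbered 12, with 10 to 13 under the other alternatives and 7 to 14 in the fits without a library. Falls numbered 2, with 1 for library size alone, limma-voom and no filter on low counts, 5 for DESeq2's Wald test, and 1 to 3 in the fits without a library. Rises in the pathway list numbered 4 to 8 and falls 2 to 6 in those fits. Falls in the target list numbered 2 with DESeq2's Wald test and 0 to 1 in those fits. Over all genes those fits called 777 to 1552 rises and 467 to 1293 falls, with fewer samples in each. *Lats2* had log2 fold changes of 0.55 to 0.78 in them and lost the call in 4. Direction turned for genes that were not called: *Ctnnb1* ranged from -0.18 to 0.01 and *Lef1* from -0.06 to 0.63, turned without L1L2-AKO replicate 3, and *Porcn* from -0.32 to 0.02 and *Dkk2* from -0.94 to 0.04, turned without L1L2-FF replicate 2. *Rspo3* ranged from -0.07 to 0.34 and *Wnt5b* from -0.27 to 0.35 in those fits, negative in 4 and 2 of them. The ratio of summed antagonist TPM turned from 20.4 to 0.864 with *Sfrp1* and *Sfrp5* left out, by that construction. On the CPM scale *Sfrp5* held 58.2% and *Sfrp1* 38.9% of the antagonists in L1L2-AKO in place of 75% and 22.3% on the TPM scale, and in L1L2-FF *Sfrp4* led in place of *Sfrp5*. *Dact2* lost the call with library size alone and limma-voom, and *Tle2* with limma-voom. Other scalings moved the median of all genes from -0.0195 to -0.0545 at most.

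Deviations of same-numbered libraries from their group means correlated at 0.188, 0.255 and -0.054 across genes. For differently numbered libraries the correlations ran from -0.324 to 0.211. These values do not settle whether the replicate numbers pair the libraries. With replicate number as a block, 12 Wnt genes rose and 3 fell, with *Wnt2* lost (edgeR adjusted p = 0.0812) and *Wnt6* (-1.83, edgeR adjusted p = 0.0439) and *Fzd3* (-0.91, edgeR adjusted p = 0.0319) gained. The pathway list had 5 rises and 7 falls, with *Tle2* (edgeR adjusted p = 0.0525) and *Kremen1*, named after its values were seen, lost. The cause of the other shifts was not tested.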
